A study of Mus musculus with 22 samples.

Results

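Hippocampal cells of old rTg4510 mice, a model of tau pathology, were compared with those of old wild-type (WT) mice by Drop-seq, which catches single cells in droplets with barcoded beads and counts their RNA. The members were chosen by label: the 4 animals of genotype rTg4510 aged 32 to 38 weeks and the 5 animals of genotype WT aged 32 to 40 weeks, 9 of the 22 animals of the series. Their 10800 cell barcodes held 10311 with at least 300 counts, and these were kept, of 27198 kept in the whole series. The rTg4510 animals, replicates 1 to 4, were 38, 37, 35 and 32 weeks old, and the WT animals, replicates 1 to 5, were 40, 39, 39, 35 and 32 weeks old. All 9 carry the strain label Fvb/B6, and the labels name no treatment and no transgene for the WT animals. The other animals of the series were fitted together with these 9. They were 3 of genotype P301L aged 41 to 48 weeks and 3 of genotype rTta aged 33 weeks. The rest were 4 young WT animals of 5 to 6 weeks and 3 young rTg4510 animals of 4 to 5 weeks. As background, the rTg4510 line carries a mutant human tau cDNA behind a tetracycline operator, which is switched on by a transactivator under the Camk2a promoter, so that the transgene is made mainly in excitatory neurons of the forebrain. Insertion of the constructs is known to have disrupted other genes of the line. The groups therefore differ in more than tau.

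Tau, encoded by Mapt, binds and steadies microtubules in axons, and in tauopathies it gathers in neurons as insoluble aggregates. Microglia, the resident phagocytes of the brain, take up debris and process it in lysosomes, and near damaged neurons they are known to switch on genes of lipid handling, lysosomes and antigen presentation. Astrocytes respond to injury with intermediate filament genes such as Gfap. Oligodendrocytes, which make myelin, can turn on complement and antigen presentation genes in disease.

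The 9 libraries held 780831 to 6039656 counts each, and median counts per kept barcode ran from 817 to 2021. Clustering gave 27 clusters, and 8653 of the 10311 cells fell in clusters named from marker genes, while 1658 (16.1%) stayed unnamed. In 561 named cells the markers of some other class outnumbered those of the cell's class. Of the 36 pairs of libraries, 3 shared 1 kept barcode each. Cells of the choroid plexus were 34.0% of the kept barcodes in rTg4510 replicate 3, 4.92% in WT replicate 4, 0.601% in WT replicate 3 and 0% in the other animals. Changes over all cells are therefore given with and without these cells.

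Mapt and Prnp served to check the genotype labels. In excitatory neurons Mapt (chromosome 11, 104231390 to 104332090 on mm10) stood at 548, 534, 503, 440 and 492 CPM (the gene's counts relative to all counts of that class in the animal) in WT replicates 1 to 5. It stood at 2320, 1636, 1393 and 1680 CPM in rTg4510 replicates 1 to 4. The groups did not overlap, and the fitted log2 change, always old rTg4510 minus old WT, was 1.80 ± 0.16 (standard error, SE; Benjamini-Hochberg adjusted p = 5.7e-09 by edgeR). Prnp, which encodes the prion protein and whose regulatory vector holds the tau transgene (chromosome 2, 131909928 to 131938429), rose in the same cells by 1.15 ± 0.19 (adjusted p = 0.0014). It lay between 911 and 2064 CPM in WT and between 2985 and 3510 CPM in rTg4510 animals. Counts of both genes can hold reads from the transgene. In interneurons both genes passed as well, Mapt at 1.31 ± 0.23 (adjusted p = 0.0043) and Prnp at 1.68 ± 0.26 (adjusted p = 0.00037), and they were the only 2 of 6499 genes called there (percent called 0.0308). WT replicate 2 had too few interneurons and was left out of that fit. Mapt was positive in all 9 classes, with log2 changes between 0.27 in oligodendrocytes and 1.80 in excitatory neurons, and only the calls in these 2 neuron classes passed. The difference between the excitatory and interneuron changes of Mapt was 0.52 ± 0.20 (limma on within-animal differences, adjusted p = 0.52), which did not pass the test.

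Wdr60, a gene at the insertion site of the transactivator (chromosome 12, 116206262 to 116263022), fell in excitatory neurons by 1.11 on the log2 scale (SE 0.25, adjusted p = 0.039) and in microglia by 1.61 (SE 0.42, adjusted p = 0.016). It was negative in all 8 classes in which it was tested. In excitatory neurons WT animals had 176, 189, 117, 83.2 and 173 CPM and rTg4510 animals 71.1, 93.6, 51.2 and 57.6 CPM, with an overlap between WT replicate 4 and rTg4510 replicate 2. The calls were lost in 9 of 19 alternative fits in excitatory neurons and 3 of 17 in microglia. The other genes tested at the insertion sites, Esyt2 (log2 change -0.73, adjusted p = 0.54), Ptprn2 (-0.64, adjusted p = 0.19) and Fgf14 (-0.63, adjusted p = 0.55), did not pass in excitatory neurons. Each of them had an edgeR p under 0.05 before adjustment, as did 724 of all 9090 genes tested.

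Genes called between the genotypes fell very unevenly over the cell classes. Counts were summed per animal and class, leaving out an animal with under 20 cells in it, and a gene was called at an adjusted p under 0.05. Microglia gave 129 higher and 26 lower genes of 4327 tested, so that 3.58% were called. Astrocytes gave 25 higher and 4 lower of 5248 (0.553% called, 0.0762% lower). Excitatory neurons gave 10 higher and 13 lower of 9090 (0.253% called, 0.11% higher and 0.143% lower), and oligodendrocytes 8 higher and 1 lower of 5929 (0.152% called, 0.0169% lower). In a class of neurons led by Nxph3, in oligodendrocyte precursors, in endothelial cells and in mural cells edgeR called 0 genes, while 191, 233, 163 and 152 genes had a p under 0.05 before adjustment. DESeq2 called 1, 0, 0 and 5 genes in these 4 classes. The fit of the Nxph3 class held 2 old WT and 3 old rTg4510 animals, and that of mural cells 3 and 3. The numbers of cells differed between classes and genotypes, for instance 400 microglia in WT and 904 in rTg4510 animals, and with them the size of change that could be called. Nothing in the labels says that the animals are independent of litters or processing days. The p values therefore measure only the spread between the animals fitted. In the edgeR fits this spread was estimated over all groups of the series, not from the old WT and old rTg4510 animals alone.

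**Figure D1:**
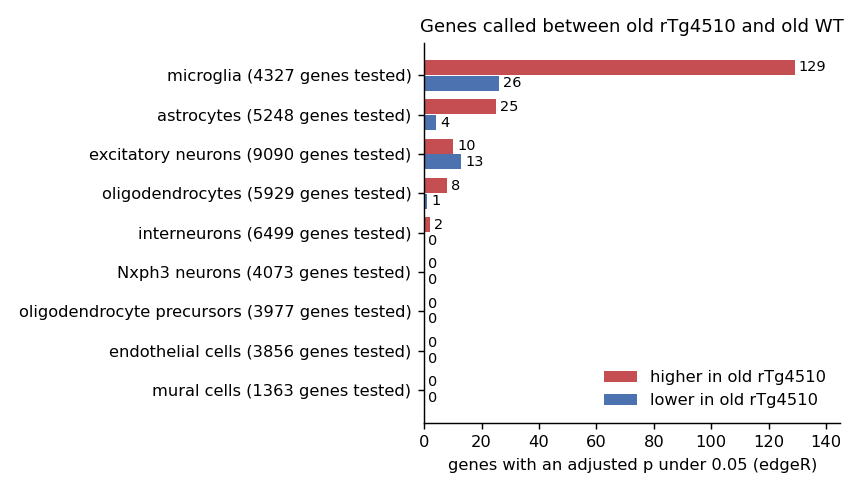
Number of genes called higher (red) or lower (blue) in old rTg4510 than in old WT animals, by cell class, with the number of genes tested in brackets. Microglia hold 129 higher and 26 lower genes, and 4 classes hold 0. Of these, Nxph3 neurons (2 WT and 3 rTg4510 animals) and mural cells (3 and 3) were fitted with fewer animals than microglia.

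Microglia of old rTg4510 animals had more RNA of lipid, lysosome and antigen presentation genes. Lpl, the lipase that frees fatty acids from lipoproteins (chromosome 8, 68880491 to 68907448), stood at 22.6, 30.1, 48.0, 61.7 and 71.4 CPM in WT replicates 1 to 5 and at 348, 380, 458 and 377 CPM in rTg4510 replicates 1 to 4. Each rTg4510 animal was far above each WT animal. The log2 change was 3.29 ± 0.41 (adjusted p = 1.8e-06). Apoe, the lipid carrier of the brain (chromosome 7, 19696109 to 19699188), went from 3391, 5177, 3747, 9372 and 1700 CPM in WT to 53278, 28840, 39412 and 25930 CPM in rTg4510 animals. The lowest rTg4510 animal lay above the highest WT animal, and Apoe changed by 3.23 ± 0.42 (adjusted p = 6.7e-06). The scale factors of edgeR (trimmed mean of M values, TMM) differed between the genotypes in microglia and added 0.27 to the log2 changes relative to the plain ratio of CPM. The median change over all genes tested was 0.01 on this fitted scale. Of the other 8 classes, none called Apoe: its log2 changes there ran from -0.42 to 0.48. The change in microglia exceeded that in astrocytes by 3.18 ± 0.44 (limma, adjusted p = 0.0041) and that in oligodendrocytes by 3.26 ± 0.39 (adjusted p = 0.00064).

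**Figure D2:**
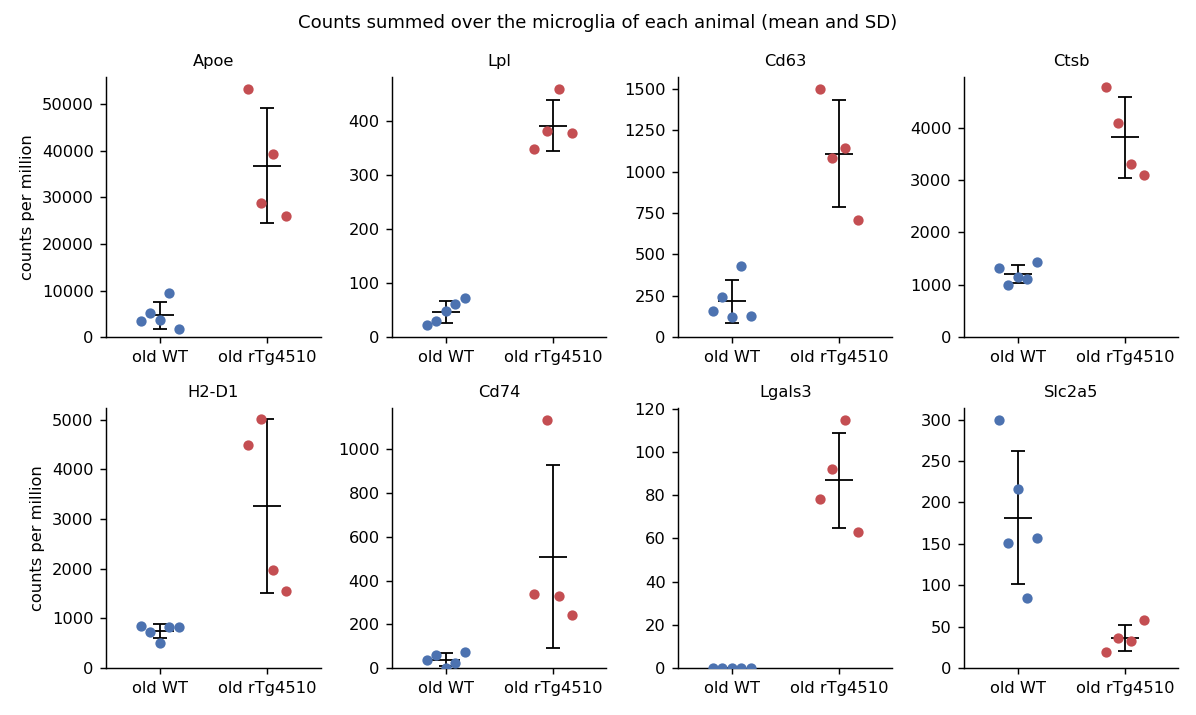
CPM of 8 genes in the microglia of each animal, with points for animals (blue, 5 old WT; red, 4 old rTg4510) and bars for the mean and SD. In 7 panels all red points lie above all blue points, and in the panel of Slc2a5 they lie below.

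Lpl and Apoe belong to a list of 22 genes known from disease-associated microglia, of which 15 were tested and 14 rose. The median change of the 15 was 1.71, against 0.01 over all genes tested, where 2.98% were called higher. Axl, a receptor for dying cells, stood at 11.3, 0, 0, 61.7 and 14.3 CPM in WT and at 221, 181, 169 and 131 CPM in rTg4510 animals (3.07 ± 0.47, adjusted p = 2.5e-05). Its groups did not overlap, though WT replicate 4 was well above the other WT animals. Cd9, a tetraspanin of the plasma membrane, lay between 351 and 697 CPM in WT and between 1366 and 2040 CPM in rTg4510 animals (1.95 ± 0.27). Cd52, a small surface glycoprotein, changed by 2.2 ± 0.32. Trem2, the lipid-sensing receptor of microglia, stood at 1217, 1294, 673, 1156 and 1500 CPM in WT and at 2471, 2273, 1746 and 1978 CPM in rTg4510 animals, without overlap (1.09 ± 0.30, adjusted p = 0.024). Its adaptor Tyrobp rose by 1.52 ± 0.28 (adjusted p = 0.00045). Lgals3, a galectin that binds damaged membranes (chromosome 14, 47367751 to 47386160), had 0 counts in all 5 WT animals and stood at 78.1, 92.1, 115 and 62.8 CPM in rTg4510 animals. It was at least 13.2-fold higher when 3 counts over the WT group are taken as the floor, and the median of the list is the same with Lgals3 at that bound. Genes as low in WT as Lgals3 and Axl can pass the filter on low counts through the animals in which they are high. The number of members that rose and their median therefore rest in part on this filter. Among the members that rose, Fth1, Ccl6 and Ank lost the call in 11, 15 and 12 of 18 alternative fits.

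Lysosomal enzymes and carriers rose, while no subunit of the proton pump passed the test. Of 13 cathepsins, the proteases of the lysosome, 11 were tested and 8 rose, with a median change of 1.42. The share called higher over all 4327 genes tested was 2.98%. Of 24 hydrolases and carriers 22 were tested and 8 rose, with a median of 0.88. Of the 16 subunits of the proton pump that acidifies lysosomes 14 were tested and 0 passed by edgeR or DESeq2, 2 had an unadjusted p under 0.05, and the median was -0.03. The difference between the lists was not tested. Ctsb (chromosome 14, 63122462 to 63145923) stood at 1325, 993, 1153, 1110 and 1429 CPM in WT and at 4775, 4084, 3302 and 3092 CPM in rTg4510 animals. Each rTg4510 animal was above each WT animal, and the change was 1.90 ± 0.27 (adjusted p = 7.3e-06). Cd63, a tetraspanin of late endosomes (chromosome 10, 128900989 to 128912822), went from 159, 241, 120, 432 and 129 CPM to 1501, 1085, 1146 and 706 CPM (2.54 ± 0.33, adjusted p = 2.1e-06). Man2b1, the lysosomal alpha-mannosidase (chromosome 8, 85083270 to 85098282), went from 119, 181, 72.1, 208 and 157 CPM to 606, 680, 611 and 544 CPM (2.25 ± 0.31, adjusted p = 6.7e-06). Neither gene overlapped between the groups, and neither lost its call in any of 18 alternative fits. Npc2, which carries cholesterol out of the lysosome, rose by 1.61 ± 0.26, and Creg1, a secreted glycoprotein found in lysosomes, by 1.79 ± 0.28. Both changes were larger than in oligodendrocytes, by 1.71 ± 0.23 (limma, adjusted p = 0.0015) for Npc2 and by 1.96 ± 0.35 (adjusted p = 0.011) for Creg1. Soat1, which esterifies cholesterol for storage, rose from a mean of 31.2 to 105 CPM (1.90 ± 0.41).

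Promoter sequence is shown for Ctsd, a cathepsin that rose by 1.42 ± 0.29 from a mean of 3496 to 8005 CPM, since it was the only one of the lysosomal genes examined whose 150 bases before the RefSeq start held CACGTG, the core of the element through which lysosomal genes are known to be coordinated. The bases are from GRCm38.p6 (mm10), minus strand, at chr7:142387828-142387977, 5′ to 3′, and the motif is in capitals. Both strands were searched. By the GENCODE annotation, the source of the gene positions printed here, Ctsd spans 142375911 to 142388038. The window before its RefSeq start therefore lies inside that span.
Ctsd: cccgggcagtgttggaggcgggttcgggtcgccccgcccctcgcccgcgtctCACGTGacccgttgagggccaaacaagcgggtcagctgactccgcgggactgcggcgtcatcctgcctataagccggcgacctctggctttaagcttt
The motif is found in 4.30% of all 32851 RefSeq windows of this length. Man2b1, Gusb, Ctsz, Ctsl, Npc2, Creg1 and Cd63, the other lysosomal genes examined, had no match in their windows, and no window was read for Ctsb. The windows of Ctsl and Cd63 also lie inside the GENCODE spans of these genes, and the bases before the GENCODE starts were not searched.

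Antigen presentation genes rose in the same microglia. Of 16 genes of class I and the immunoproteasome 11 were tested, all 11 had positive changes and 4 rose: H2-D1, H2-K1, B2m and Psmb8. Over all genes tested in microglia 2.98% were called higher. H2-D1, a class I heavy chain (chromosome 17, 35262730 to 35267499), stood at 844, 722, 504, 825 and 829 CPM in WT and at 4500, 5014, 1976 and 1559 CPM in rTg4510 animals. H2-K1 (chromosome 17, 33996017 to 34000347) went from 679, 632, 600, 455 and 386 CPM to 2064, 2482, 1184 and 1062 CPM. For both, replicates 1 and 2 of rTg4510 were higher than replicates 3 and 4, and no animal overlapped with WT. The changes were 2.37 ± 0.36 (adjusted p = 3.4e-05) and 1.89 ± 0.31 (adjusted p = 6.2e-05). Reads of H2-D1 can be counted to H2-K1 and the reverse, because their sequences are nearly the same, so each value alone is uncertain. B2m, the light chain that pairs with both (chromosome 2, 122147686 to 122153083), rose from a mean of 2135 to 6344 CPM (1.84 ± 0.31). Of 7 class II genes 3 were tested and called, Cd74, H2-DMa and H2-Ab1, with means of 37.7, 4.62 and 24.9 CPM in WT. Genes this low in WT can pass the filter on low counts through the animals in which they are high, so their number is not read as a result about class II. Cd74, the invariant chain, went from 34.0, 60.2, 0, 23.1 and 71.4 CPM to 337, 1133, 327 and 241 CPM (4.04 ± 0.97, adjusted p = 0.025), with replicate 2 far above the others, and its call was lost in 7 of 18 alternative fits. H2-DMa, which loads peptides on class II, had 155 counts in rTg4510 against 3 in WT microglia, a ratio of CPM of 15.7 (95% counting interval 5.27 to 77.0, counting error only). A small unnamed cluster led by Cd74 was kept apart from the microglia, and whether such cells add to these counts was not tested.

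The windows before the class I genes are shown because the 3 genes rose together and are known targets of interferon. The bases are again from RefSeq on GRCm38.p6, 5′ to 3′: B2m at chr2:122147537-122147686 on the plus strand, H2-D1 at chr17:35262944-35263093 on the plus strand and H2-K1, before the first of its 2 listed start sites, at chr17:34000348-34000497 on the minus strand. In B2m the capitals mark the match to TTCNNTTTC, the core of the interferon-stimulated response element, read on the opposite strand. In H2-D1 and H2-K1, which hold no match to these letters, the capitals mark the longest run that both windows share, 37 bases. For this element only these letters were searched, so other forms of it can be present, also in the shared run. The H2-D1 window lies inside the GENCODE span of the gene.
B2m: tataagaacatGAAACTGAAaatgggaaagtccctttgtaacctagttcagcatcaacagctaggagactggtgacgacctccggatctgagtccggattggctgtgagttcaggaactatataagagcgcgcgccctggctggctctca
H2-D1: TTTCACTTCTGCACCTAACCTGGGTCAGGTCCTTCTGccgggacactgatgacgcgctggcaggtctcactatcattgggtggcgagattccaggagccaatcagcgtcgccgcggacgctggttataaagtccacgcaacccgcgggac
H2-K1: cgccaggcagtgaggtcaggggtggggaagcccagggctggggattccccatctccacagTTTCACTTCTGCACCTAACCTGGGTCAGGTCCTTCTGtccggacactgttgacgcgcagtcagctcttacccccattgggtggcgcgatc
TTCNNTTTC is found in 3.95% of all windows of this length. The other motifs searched on both strands, TGACGTCA, TGANTCA and GAGGAAGT, are found in 1.36%, 4.24% and 1.63% and matched none of the windows examined.

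Some complement and innate sensing genes rose as well. Of 18 complement genes 8 were tested and 5 rose in microglia, with a median change of 1.10. For this and the lists below, the share called higher over all genes tested was 2.98%. C3ar1, the receptor for a fragment of complement C3, changed by 1.71 ± 0.30 (adjusted p = 0.00014). C1qb, a chain of the first complement component, went from 2514, 2588, 2282, 1757 and 2814 CPM to 5882, 4867, 3165 and 3657 CPM, without overlap (1.14 ± 0.31, adjusted p = 0.022). Of 18 alternative fits, C1qa lost its call in 11, C1qb in 7 and C1qc in 12. Of 18 genes of TREM2 and Toll-like receptor signalling 14 were tested and 4 rose: Trem2, Tyrobp, Tlr2 (1.47 ± 0.30) and its co-receptor Cd14 (1.53 ± 0.36). Of 24 chemokines and cytokines 13 were tested and 1 rose, Cxcl16, a membrane-bound chemokine that also takes up oxidised lipoprotein (chromosome 11, 70453983 to 70459984). It stood at 5.66, 30.1, 96.1, 7.71 and 0 CPM in WT and at 237, 162, 136 and 178 CPM in rTg4510 animals (3.63 ± 0.51, adjusted p = 6.7e-06). Il1b, an inflammatory cytokine, had means of 356 and 1276 CPM and did not pass (2.35 ± 0.65, adjusted p = 0.055). Of 20 interferon response genes 7 were tested, all with positive changes (median 1.40), and 1 rose, the surface protein gene Ly6e. Genes low in WT can pass the filter on low counts through the animals in which they are high. The signs, medians and numbers of members that rose in these lists can therefore rest in part on this filter. Slc11a1, an iron exporter of phagosomes, rose by 2.46 ± 0.41 (adjusted p = 0.00011).

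Genes of resting microglia mostly did not pass. Of 21 homeostatic genes 20 were tested and 1 fell, Slc2a5, a fructose transporter (chromosome 4, 150119283 to 150144169), from 300, 150, 216, 84.8 and 157 CPM in WT to 18.9, 36.6, 32.7 and 57.6 CPM in rTg4510 animals (-2.178 ± 0.36, adjusted p = 0.00011). Its groups did not overlap. The median of the 20 was -0.20. P2ry12, the purine receptor used as a marker of resting microglia, had means of 2386 and 1056 CPM (-0.91 ± 0.32, adjusted p = 0.12). Of 4327 genes 0.601% were called lower, and the others among those with the smallest p included Spry1, an inhibitor of growth factor signals (147, 120, 96.1, 108 and 85.7 CPM in WT, 26.9, 21.7, 10.9 and 15.7 in rTg4510, -2.23 ± 0.45), Epha2, an ephrin receptor (-2.25 ± 0.56), and Gimap6, an immune GTPase (-2.79 ± 0.67). Of 16 heat shock chaperones 14 were tested and 11 had negative changes, with a median of -0.59 against 0.01 over all genes. Before adjustment 7 had an edgeR p under 0.05, against 629 of all 4327 genes tested, and DESeq2 called 2. By edgeR 1 fell, Dnajb1, from 232, 451, 504, 239 and 129 CPM to 48.5, 67.7, 92.8 and 78.5 CPM (-1.78 ± 0.35, adjusted p = 0.00098). In the cluster led by P2ry12 alone its change was 0.41. Further falls were those of genes of neurons or of several cell types: Elavl3, Nrgn, Ncam1, Hlf and Sepw1, with changes of -1.43, -1.29, -1.29, -1.49 and -1.23. Summed over 11 excitatory neuron markers the microglia held 1153 to 1956 CPM in WT and 490 to 1244 CPM in rTg4510 animals, and 1 of 6 tested markers, Nrgn, fell. The part of neuronal RNA in these falls was not tested.

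The microglia class joined 2 clusters, led by P2ry12 and by Ccl4. They made up similar shares of its pooled cells in both genotypes (46.8% and 53.3% in WT, 49.4% and 50.6% in rTg4510). Lpl rose in each, by 2.46 ± 0.60 in the P2ry12 cluster and 3.81 ± 0.49 in the Ccl4 cluster, and so did Apoe, by 2.94 ± 0.53 and 3.13 ± 0.81. P2ry12, not called in the class, fell in the Ccl4 cluster from a mean of 2108 to 977 CPM (-0.95 ± 0.27, adjusted p = 0.034) and had a change of -0.97 ± 0.38 in the P2ry12 cluster (adjusted p = 0.26). These fits hold 3 WT and 4 rTg4510 animals, and call 1.37% (1.08% higher, 0.283% lower) and 5.51% (3.61% higher, 1.89% lower) of the genes tested. Of the 155 calls of the class, 108 could be tested in the P2ry12 cluster, where 26 were called and 107 had the same sign. In the Ccl4 cluster 132 could be tested, 89 were called and all 132 had the same sign. The clusters hold the same cells that gave the calls of the class, so the agreement in sign is largely given in advance. The 155 calls became 93 without WT replicate 1, 82, 94 and 257 without rTg4510 replicate 1, 2 or 3, and 103 with a term for the range of animal numbers, lower or higher, which also differ in age.

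Over all kept cells the calls were few. Of 12414 genes 22 rose (0.177%) and 1 fell (0.00806%), 0.185% in all. All 22 were tested within microglia and 21 rose there, where 2.98% of all genes tested were called higher. The sums over all cells hold the microglia too, so this overlap is largely given in advance. In each other class only 2 to 8 of the 22 were tested. The change within microglia was smaller than in the whole for 17 of the 22. In these sums, more cells of a type and more RNA per cell cannot be told apart. Man2b1 stood at 23.9, 17.9, 22.5, 46.3 and 25.1 CPM in WT and at 134, 144, 94.0 and 62.3 CPM in rTg4510 animals over all cells (2.02 ± 0.31, adjusted p = 0.021). The gene that fell was Npy2r, a presynaptic receptor for neuropeptide Y (chromosome 3, 82538383 to 82548084), from 17.5, 16.7, 26.4, 18.9 and 35.5 CPM to 4.17, 9.30, 3.50 and 6.92 CPM (-1.88 ± 0.36, adjusted p = 0.035). Both genes separated the groups in every animal. Without choroid plexus cells the change of Man2b1 in all kept cells was 2.06 (adjusted p = 0.0021) and that of Npy2r in all kept cells -1.69 (adjusted p = 0.0076). The 23 calls became 80 without choroid plexus cells, 0 without WT replicate 1, 2, 3 or 5 or rTg4510 replicate 1 or 2, 104 and 48 without rTg4510 replicate 3 or 4, 103 with DESeq2 and 0 with only the 9 animals in the fit.

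Shares of cells were compared outside choroid plexus cells. Microglia made up 11%, 5.21%, 5.44%, 8.50% and 7.94% of the cells of WT animals and 20.0%, 23.4%, 9.67% and 15.5% of those of rTg4510 animals. Only rTg4510 replicate 3 lay within the range of WT, and the difference of 9.50 percentage points had an exact two-sided permutation p of 0.016 (adjusted p = 0.16 over 20 shares). Astrocytes made up 11.7% ± 0.638 (SD, n = 5) in WT and 14.1% ± 2.07 (n = 4) in rTg4510 animals, with the same exact permutation p. Oligodendrocytes made up 17.4% ± 7.75 and 12.5% ± 2.10, and excitatory neurons 17.7% ± 5.41 and 20.5% ± 9.52. No share passed after adjustment, and the smallest p that 5 against 4 animals allow is 0.0079. An unnamed cluster of barcodes with few counts, led by Shq1, held 1.61% to 29.5% of cells in WT and 1.42% to 17.7% in rTg4510 animals, which moves the shares of all classes. Dissociation can lose cell types unequally, so these are shares of captured cells.

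In astrocytes of old rTg4510 animals 25 genes rose and 4 fell, and Gfap, Aqp4, Kcnj10 and 3 class I genes were among those that rose. Gfap, the intermediate filament gene of reactive astrocytes (chromosome 11, 102887336 to 102900912), stood at 696, 240, 383, 480 and 242 CPM in WT and at 3247, 1867, 3804 and 1354 CPM in rTg4510 animals. Each rTg4510 animal was above each WT animal, and the change was 2.68 ± 0.56 (adjusted p = 0.044), with the call lost in 7 of 16 alternative fits. Cells thinned to 300 counts had a Gfap count in 10.7% ± 4.63 (SD, n = 5) of WT and 43.0% ± 15.5 (n = 4) of rTg4510 astrocytes. In excitatory neurons, which should lack Gfap, the same shares were 0.702% and 3.25%, and without thinning the shares were 32.1% and 78.7% in astrocytes and 6.16% and 23.1% in excitatory neurons. Median counts per astrocyte were 1186 and 1549, and per excitatory neuron 1838 and 2180. Gfap had positive changes in all 9 classes, between 1.64 and 2.78, and the call passed in astrocytes alone. Outside astrocytes the means of Gfap were lower than in astrocytes of the same genotype (408 and 2568 CPM). In oligodendrocytes Gfap lay between 12.2 and 71.4 CPM in WT and between 134 and 541 CPM in rTg4510 animals, and in microglia it reached 633 CPM in 1 rTg4510 animal. Free RNA was not measured.

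**Figure D3:**
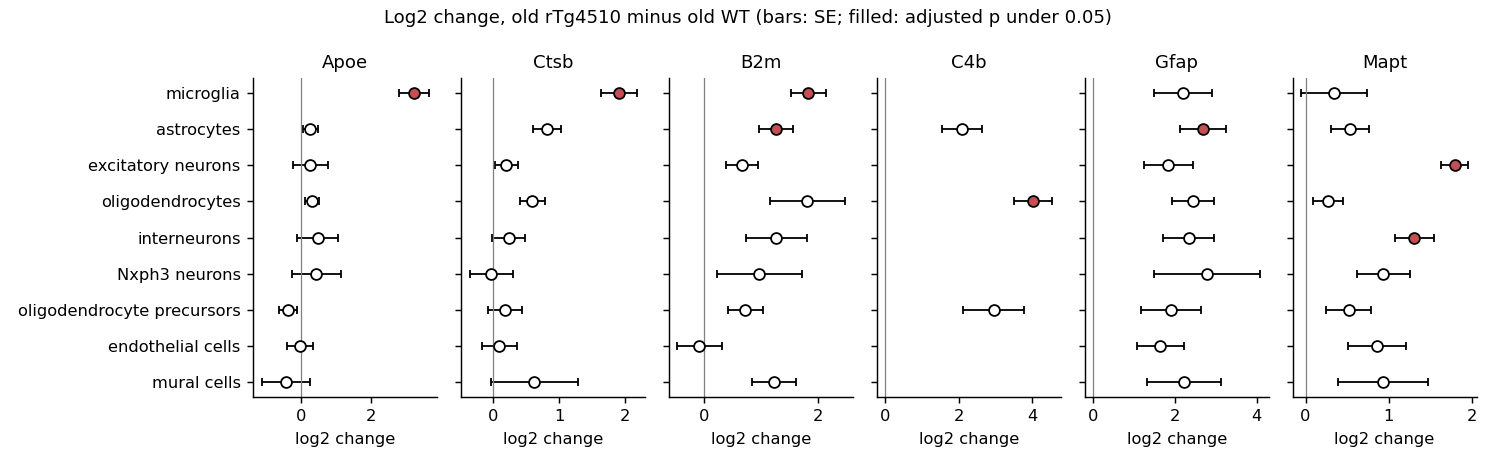
Log2 change of 6 genes in each of the 9 cell classes, with bars for the SE and filled points for an adjusted p under 0.05; classes in which a gene was not tested have no point. Apoe and Ctsb are called in microglia, B2m in microglia and astrocytes, C4b in oligodendrocytes, Gfap in astrocytes and Mapt in both neuron classes, while Gfap and Mapt are positive in every class.

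Aqp4, the water channel of astrocyte end-feet, stood at 902, 898, 1003, 1023 and 1065 CPM in WT and at 1830, 1921, 1881 and 1368 CPM in rTg4510 animals, and the potassium channel gene Kcnj10 at 305 to 659 CPM and 721 to 1036 CPM. Neither overlapped, and the changes were 0.90 ± 0.23 (adjusted p = 0.049) and 1.02 ± 0.25 (adjusted p = 0.048). They were the 2 of 24 homeostatic astrocyte genes that passed, all 24 tested, with a median of 0.02 against -0.03 over all genes. Of 24 reactive astrocyte genes 8 were tested, all with positive changes (median 2.14), and 2 rose, Gfap and H2-D1, where 0.476% of all genes were called higher. Of the others, the protease inhibitor gene Serpina3n had means of 140 and 632 CPM (2.27 ± 0.51, adjusted p = 0.057). Members low in WT can pass the filter on low counts through the animals in which they are high. The signs and median of the reactive list can therefore rest in part on this filter. Class I genes passed at 3 of 7 tested members of 16: H2-K1 (125, 83.6, 41.4, 114 and 167 CPM in WT, 295, 354, 345 and 173 in rTg4510, 1.45 ± 0.26, adjusted p = 0.0062), H2-D1 (1.41 ± 0.31) and B2m (1.28 ± 0.30). The changes of H2-D1, H2-K1 and B2m in microglia exceeded those in astrocytes by 0.72, 0.34 and 0.54, and none of these differences passed the test (limma, adjusted p = 0.62, 0.85 and 0.74).

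Other genes that rose in astrocytes with a small p were Irgm1, an interferon-induced GTPase (16.2, 0, 0, 15.5 and 40.3 CPM in WT, 84.7, 94.5, 83.0 and 74.1 in rTg4510, 2.34 ± 0.45), Dbndd2, a dysbindin family gene (1.73 ± 0.31), and the transcription regulator Id1 (1.47 ± 0.33). Chi3l1, a secreted chitinase-like glycoprotein used as a marker of glial activation, changed by 2.04 ± 0.42, and Abca1, which exports cholesterol to lipoproteins, by 1.13 ± 0.28. Of the 4 genes that fell, Hes5, a target of Notch signalling, fell from 316, 219, 403, 320 and 247 CPM to 115, 193, 51.9 and 91.7 CPM (-1.33 ± 0.32), without overlap. Igfbp2, which binds insulin-like growth factors, went from 307, 460, 641, 382 and 426 CPM to 214, 207, 259 and 88.2 CPM (-1.10 ± 0.25), and Ppp3r1, a calcineurin subunit, and Ncdn, a neuronal gene, fell as well. These 4 calls were lost in 8 to 12 of 16 alternative fits. Of 20 cholesterol synthesis genes 16 were tested, all 16 had negative changes (median -0.57), 0 passed by edgeR or DESeq2 and 4 had an unadjusted p under 0.05. Microglia markers rose in the astrocyte barcodes: Ctss (1.75 ± 0.40) and C1qb (1.71 ± 0.42) passed, of 7 markers tested, and the summed level of the 10 markers was 267 to 569 CPM in WT and 481 to 1694 CPM in rTg4510 animals. Their part in the rise of class I genes was not tested. The 29 calls fell to between 3 and 13 without WT replicate 1, 2, 3, 4 or 5 or rTg4510 replicate 1 or 3.

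In oligodendrocytes of old rTg4510 animals 8 genes rose, the complement gene C4b among them, and 1 fell. C4b, a component of the classical complement pathway (chromosome 17, 34728380 to 34743882), stood at 24.8, 12.8, 12.2, 85.0 and 10 CPM in WT and at 1003, 329, 529 and 293 CPM in rTg4510 animals. The lowest rTg4510 animal was well above the highest WT animal, and the change was 4.03 ± 0.53 (adjusted p = 0.0018). The call was lost in 1 of 16 alternative fits, at an adjusted p of 0.051. C4b has a nearly identical neighbour, C4a, and reads of one can be counted to the other. In astrocytes its means were 87.0 and 394 CPM (2.10 ± 0.54, adjusted p = 0.13), in oligodendrocyte precursors 15.2 and 147 CPM (2.95 ± 0.84, adjusted p = 0.43), and in excitatory neurons 4.92 and 12.4 CPM. The difference between the changes in astrocytes and oligodendrocytes, -1.75 ± 0.43, did not pass (limma, adjusted p = 0.28). Thinned to 300 counts, 1.15% ± 0.809 of WT and 13.2% ± 6.22 of rTg4510 oligodendrocytes had a C4b count, against 0.124% and 0.237% of excitatory neurons. Without thinning the shares were 1.17% and 3.31% in excitatory neurons and 3.86% and 41.4% in oligodendrocytes, the latter at median counts of 1359 and 1634 per cell.

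**Figure D4:**
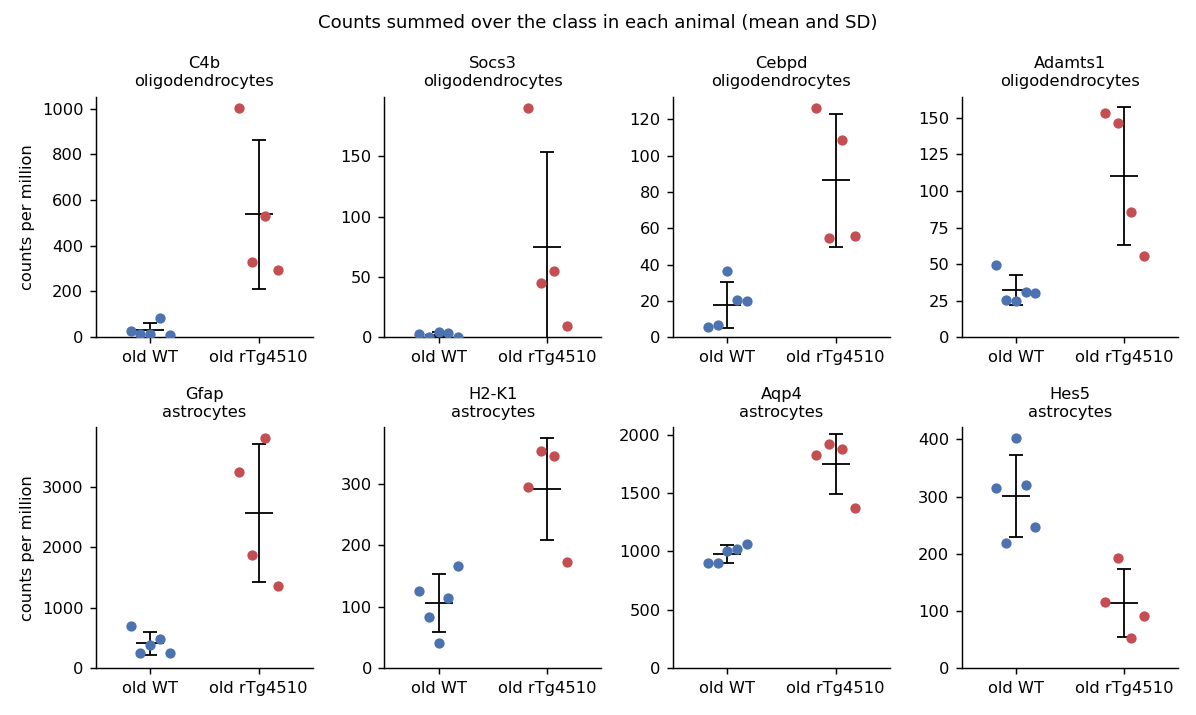
CPM in each animal for 4 genes in oligodendrocytes (top) and 4 in astrocytes (bottom), with points for animals (blue, 5 old WT; red, 4 old rTg4510) and bars for the mean and SD. In 7 panels all red points lie above all blue points, and in the panel of Hes5 all lie below; Socs3 in rTg4510 replicate 4 is close to the WT animals.

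The other genes that rose in oligodendrocytes were Socs3, Cebpd, Adamts1, Gadd45a, Cela1, Lbh and Tmod1. Socs3, an inhibitor of cytokine signals through STAT3 (chromosome 11, 117966079 to 117970047), had 3 counts in WT and 80 in rTg4510 oligodendrocytes, a ratio of CPM of 26.1 (95% counting interval 8.60 to 129, counting error only). It stood at 2.75, 0, 4.07, 3.40 and 0 CPM in WT and at 190, 44.7, 54.4 and 9.29 CPM in rTg4510 animals, so replicate 4 was close to WT. Cebpd, a transcription factor of the acute phase (chromosome 16, 15887286 to 15891031), stood at 5.50, 6.42, 36.6, 20.4 and 20.1 CPM and at 127, 54.9, 109 and 55.7 CPM (2.29 ± 0.49, adjusted p = 0.032). It also rose in astrocytes (2.02 ± 0.42, adjusted p = 0.024), and its change in oligodendrocytes exceeded that in microglia (-0.76) by more than the spread between animals: the difference, microglia minus oligodendrocytes, was -2.55 ± 0.44 (limma, adjusted p = 0.011). Adamts1, a secreted metalloprotease (49.5, 25.7, 24.4, 30.6 and 30.1 CPM in WT, 154, 146, 85.6 and 55.7 in rTg4510), changed by 1.76 ± 0.32, and Gadd45a, a gene induced by stress and DNA damage, by 2.73 ± 0.51. Cela1, an elastase-like protease gene, Lbh, a transcription regulator, and Tmod1, a cap of actin filaments, changed by 1.73, 1.5 and 1.19. The gene that fell was Sepw1, a selenoprotein gene (-0.95 ± 0.21, adjusted p = 0.045), which was negative in all 9 classes and fell in microglia too. The calls of Cebpd, Tmod1 and Sepw1 were lost in 7, 8 and 10 of 16 alternative fits.

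Of 16 genes known from disease-associated oligodendrocytes 14 were tested, 13 had positive changes and 2 rose, C4b and Socs3, with a median of 0.88 against 0.01 over all genes and 0.135% called higher. Genes as low in WT as Socs3 can pass the filter on low counts through the animals in which they are high. The number of members that rose and their median therefore rest in part on this filter. The class I genes of this list had changes of 2.12 for H2-D1 and 1.82 for B2m that did not pass (adjusted p = 0.41 and 0.57). Of 18 myelin genes all 18 were tested, 0 passed by edgeR or DESeq2 and 1 had an unadjusted p under 0.05. Their median was -0.05, and Mbp, a main myelin protein gene, had a change of -0.34 ± 0.18. Microglia markers in the oligodendrocyte barcodes summed to 114 to 355 CPM in WT and 258 to 809 CPM in rTg4510 animals, and astrocyte markers to 1769 to 4905 and 1956 to 9396 CPM. Of the 10 astrocyte markers 9 were tested and 0 called. Their part in the rises was not tested. The 9 calls became 0 with only the 9 animals in the fit, 5 without rTg4510 replicate 1, 23 without rTg4510 replicate 3 and 15 with DESeq2.

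In excitatory neurons 10 genes rose and 13 fell. Besides Mapt and Prnp, Car4, a membrane-bound carbonic anhydrase (chromosome 11, 84957786 to 84966044), rose from 42.3, 61.2, 79.6, 50.5 and 48.5 CPM to 344, 274, 245 and 279 CPM. The groups were far apart, with a change of 2.37 ± 0.36 (adjusted p = 0.0014). Ccdc80, a secreted matrix protein, changed by 2.67 ± 0.50, the potassium channel gene Kcnt1 by 1.5 ± 0.32 and Tbr1, a transcription factor of cortical neurons, by 1.16 ± 0.25. Cxcl12, a chemokine of granule cells (chromosome 6, 117168535 to 117181367), fell from 85.8, 66.8, 39.8, 56.5 and 116 CPM to 2.29, 18, 19.5 and 9.22 CPM (-2.47 ± 0.34, adjusted p = 0.0001). Ntng1, an axon guidance molecule (chromosome 3, 109780040 to 110144011), fell from 288, 195, 250, 149 and 243 CPM to 80.2, 49.8, 79.3 and 63.4 CPM (-1.78 ± 0.25, adjusted p = 0.00013). Doc2b, a calcium sensor of vesicle release, changed by -2.19 ± 0.34, Npy2r by -1.82 ± 0.30 and Scg2, a secretogranin of dense core vesicles, by -0.91 ± 0.20. Neither Cxcl12 nor Ntng1 had an overlap between the groups.

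Few genes of the neuron lists passed in this class. Of 25 glutamate receptor genes and partners 22 were tested, 0 passed by edgeR or DESeq2 and 4 had an unadjusted p under 0.05, with a median of -0.20 against -0.02 over all genes. Of 25 genes of synaptic vesicle release 24 were tested and 1 fell, Doc2b, with a median of 0.04. Of 24 neuropeptides and receptors 15 were tested and 2 fell, Npy2r and Scg2, where 0.143% of all genes tested were called lower. Of 25 genes that mark hippocampal fields 24 were tested and 1 fell, Npy2r, with a median of -0.37, while 12 had an unadjusted p under 0.05, against 724 of all 9090 genes tested, and DESeq2 called 3. Of 32 tau kinases, phosphatases and microtubule genes 31 were tested, 0 passed by edgeR or DESeq2 and 4 had an unadjusted p under 0.05, with a median of 0.10. Oligodendrocyte markers in these barcodes summed to 1065 to 3865 CPM in WT and 559 to 2023 CPM in rTg4510 animals, with 0 of 7 tested called, and their part was not tested.

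The class joined 3 clusters of unequal weight. The cluster led by C1ql3, with Calb1 and Bcl11b among its leading genes, held 60.2% of the pooled cells of the class in WT and 45.4% in rTg4510. That led by Arpp21 held 13.9% and 30.6%, and that led by Pde1a held 25.9% and 24%. The animals gave 61 to 335 cells of the class in WT and 109 to 328 in rTg4510. The pooled shares carry no spread between animals, and their difference was not tested. Within the C1ql3 cluster alone 50 genes rose (0.728%) and 40 fell (0.582%) of 6868 tested, 1.31% in all. The cells of this cluster are part of the class, so agreement with the calls of the class is largely given in advance. Of the 23 calls of the class 22 could be tested there, 19 were called and 21 had the same sign. The exception was Arpp21, a phosphoprotein gene that rose in the class (0.91 ± 0.20) and had a change of -0.07 ± 0.18 in this cluster. In the C1ql3 cluster Car4 changed by 2.80 ± 0.29, Arhgef28, a guanine nucleotide exchange factor gene, by 1.85 ± 0.26, Wipf3, an actin regulator, by 1.5 ± 0.22 and Elavl4, a neuronal RNA-binding protein gene, by 2.06 ± 0.37. Ntng1 changed by -2.96 ± 0.34, Doc2b by -4.05 ± 0.60, Pcp4, a calmodulin regulator, by -1.15 ± 0.19 and Lmo4, a transcription cofactor, by -1.16 ± 0.21. Lpl, which rose in microglia, fell in this cluster from a mean of 127 to 37.6 CPM (-1.78 ± 0.37, adjusted p = 0.0030).

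**Figure D5:**
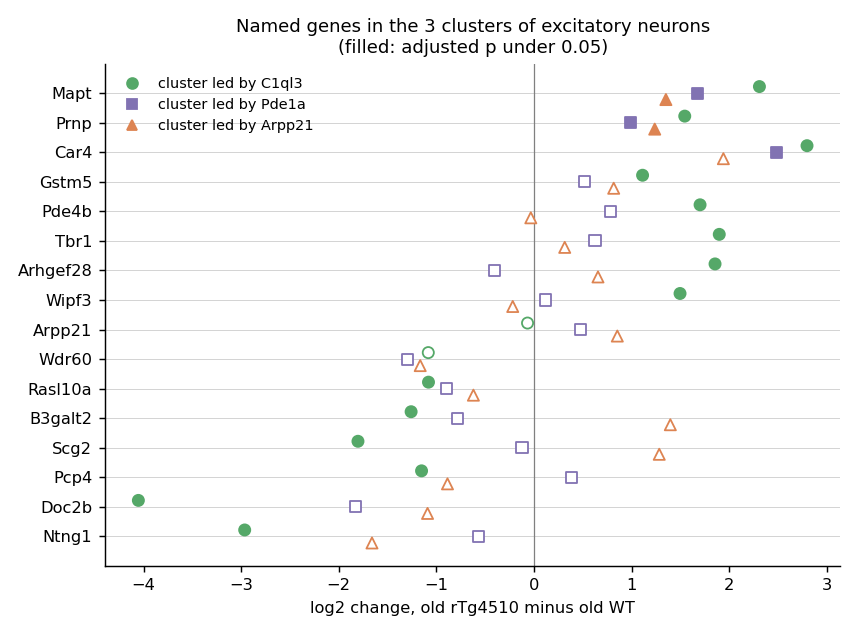
Log2 change of 16 genes in each of the 3 clusters of excitatory neurons (green circles, led by C1ql3; purple squares, led by Pde1a; orange triangles, led by Arpp21), filled where the adjusted p was under 0.05. Mapt and Prnp are filled in all 3 clusters, while Ntng1 and Doc2b are filled in the C1ql3 cluster, and Arpp21 in none.

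In the Pde1a cluster 3 genes rose (0.0514%) and 2 fell (0.0342%) of 5840, 0.0856% in all, and in the Arpp21 cluster, with 3 WT animals, 2 rose of 6906 (0.029%). Mapt passed in all 3 clusters (2.31, 1.67 and 1.35 in the C1ql3, Pde1a and Arpp21 clusters), and so did Prnp (1.54, 0.99 and 1.24). Car4 changed by 2.48 in the Pde1a cluster (adjusted p = 9.3e-06) and by 1.94 in the Arpp21 cluster (adjusted p = 0.92). Scg2 and B3galt2, which fell in the class, had changes of 1.28 and 1.40 in the Arpp21 cluster. Ptprn2 fell in the Pde1a cluster (-1.26, adjusted p = 0.020). Differences between clusters were not tested. The 23 calls of the class became 11 and 8 without WT replicate 1 or 5 and 12 and 14 without rTg4510 replicate 1 or 2.

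Whether the genotype effect differed from that in young animals was tested in the same fits, against 4 young WT animals of 5 to 6 weeks and 3 young rTg4510 animals of 4 to 5 weeks. In microglia 9 of 4327 genes differed (0.208%), and in astrocytes, excitatory neurons and oligodendrocytes edgeR called 0, while 211, 326 and 305 genes had a p under 0.05 before adjustment. DESeq2 called 18 genes in microglia and 0, 0 and 2 in these classes. H2-D1 had a change of 2.37 in old and -0.08 in young microglia, a difference of 2.44 ± 0.56 (adjusted p = 0.049), and C3ar1 1.71 and -0.48, a difference of 2.182 ± 0.47 (adjusted p = 0.049). H2-D1 means were 621 and 568 CPM in young WT and young rTg4510 microglia. Sepw1 had changes of -1.23 in old and 1.19 in young microglia (difference -2.42 ± 0.46, adjusted p = 0.015), and the neuronal genes Stmn2, Elavl3 and Sncb had positive changes in young and negative changes in old microglia. For Apoe and Lpl, whose changes were larger in old animals than that of H2-D1, a difference between ages was not called.

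Between cell classes of the same animals, 4 of 3504 genes differed between microglia and astrocytes (0.114%), 29 of 3558 between microglia and oligodendrocytes (0.815%), 3 of 4397 between astrocytes and oligodendrocytes (0.0682%) and 7 of 6290 between excitatory neurons and interneurons (0.111%). Cd63, Axl and Creg1 differed between microglia and astrocytes beside Apoe, by 2.21 ± 0.37, 3.06 ± 0.48 and 1.92 ± 0.33. The gelsolin gene Gsn differed between astrocytes (1.57) and oligodendrocytes (-0.49) by 2.10 ± 0.31 (limma, adjusted p = 0.0063), and the calcium-binding protein gene S100b by 1.89 ± 0.31 (adjusted p = 0.023, and 0.055 with a prior count of 0.5, where the call is lost). Scg2 differed between excitatory neurons (-0.91) and interneurons (0.51), by -1.43 ± 0.24 (adjusted p = 0.0049), and Penk, which encodes enkephalins, by -2.60 ± 0.44.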

How the data were processed

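Drop-seq counts of single hippocampal cells were analysed for 5 old WT and 4 old rTg4510 animals, fitted together with the other 13 animals of the series. The values are counts per gene and barcode as deposited by the authors in a table of 13685 genes and 30500 barcodes, all whole numbers. The submitters' processing notes name bcl2fastq 2.18.0.12, STAR 2.2 and the mouse build mm10; the counting tool, annotation and filters are not given in the sources used here. The members and gene lists were chosen with earlier results of these data known.

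Barcodes with at least 300 counts were clustered with scanpy 1.11.5 (2000 variable genes, 40 principal components, 15 neighbours, Leiden resolution 1), and clusters were named from markers. No doublet caller was run; barcodes with more marker counts of another class were left out in an alternative. The 12614 genes counted in every animal were summed per animal and class and tested with edgeR 4.0.16 (filterByExpr, TMM, quasi-likelihood, 6 groups), with Benjamini-Hochberg adjustment within each class and a threshold of 0.05. DESeq2 1.42.0 was an alternative. Differences between classes used limma 3.58.1 on differences of log2 CPM within animals (prior count 2), and shares an exact permutation test. The fits were tested on simulated data. Named genes were those called with the smallest p, at a mean of at least 20 CPM in either group. Up to 15 higher and 12 lower were taken in microglia. Up to 12 each way were taken in all cells, astrocytes, excitatory neurons and oligodendrocytes, and up to 6 each way in the other classes. Also named were genes called in 2 classes, list members, and the transgene and insertion site genes. Positions are from GENCODE M21 on mm10 and promoters from RefSeq on GRCm38.p6; there was no RefSeq entry for Ctsb, C4b and Cebpd in the table used.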

Additional observations from a re-analysis of the deposited data

Results flagged for a closer look

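The effect of genotype differed with age in microglia for 9 genes, by the interaction term of edgeR. As old minus young log2 change, the difference was 2.182 for C3ar1, 2.44 for H2-D1 and 3.67 for Apold1, and -2.42 for Sepw1, -3.04 for Flywch1, -2.179 for Stmn2, -2.27 for Elavl3, -2.36 for Sncb and -2.11 for Psip1. All but Sepw1 had an edgeR adjusted p of 0.0487, close to the threshold. Stmn2, Elavl3 and Sncb are neuronal genes, and the part of neuronal RNA in these differences was not tested.

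The effect of genotype differed between cell classes of the same animals, by limma. Between astrocytes and oligodendrocytes the difference was 2.10 for Gsn, 2.07 for Padi2 and 1.89 for S100b. Between excitatory neurons and interneurons it was 1.52 for Satb1, 1.32 for Stmn2, -1.89 for Col25a1, -1.43 for Scg2, -2.60 for Penk, -1.41 for Pcdh19 and -1.48 for B3galt2. Between microglia and astrocytes it was 3.18 for Apoe, 3.06 for Axl, 2.21 for Cd63 and 1.92 for Creg1. Between microglia and oligodendrocytes the genes named were Apoe (3.26), Npc2 (1.71), Cd9 (1.51), Rps19 (1.38), Gltp (2.02), Creg1 (1.96), Cd63 (2.06), Rps3 (1.36), Cebpd (-2.55) and Adamts1 (-1.54).

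In 15 of 306 groups of 4 or 5 animals 1 animal stood far from the others; chance gives about 1 in 20. WT replicate 4 stood out for Man2b1 over all cells (46.3 CPM), for Axl (61.7 CPM) and H2-DMa (23.1 CPM) in microglia and for C4b in oligodendrocytes (85.0 CPM). WT replicate 2 stood out for Nrgn (1084 CPM) and Trf (181 CPM) in microglia and for Pcdh19 in excitatory neurons (117 CPM), WT replicate 3 for Epha2 in microglia (24 CPM), and WT replicate 1 for Adamts1 in oligodendrocytes (49.5 CPM). Among rTg4510 animals, replicate 1 stood out for Abca1 in astrocytes (278 CPM), Npy2r in excitatory neurons (9.17 CPM) and Ptprn2 in interneurons (218 CPM). Replicate 2 stood out for Cd74 in microglia (1133 CPM), replicate 3 for Aldh1a1 in astrocytes (189 CPM) and replicate 4 for Aqp4 in astrocytes (1368 CPM).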

How the results depend on the processing

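Named genes kept their direction in nearly all fits: of 2400 fits for 140 called pairs of a gene and a class, 1743 kept the call, 652 lost it and 5 reversed, and 38 pairs kept it in each fit. The causes were not tested. The count over all kept cells, 23 genes, was 103 with DESeq2, 80 without choroid plexus cells, and 0 with only the 9 animals, with a term for the range of animal numbers, or with the WT and rTg4510 animals alone and more genes; leaving out 1 animal gave 0 to 104. Microglia (155) gave 103 with that term, 29 in the P2ry12 cluster alone and 82 to 257 without 1 animal. Astrocytes (29) gave 64 with no filter on low counts and 3 to 28 without 1 animal. Excitatory neurons (23) gave 90, 5 and 2 in the C1ql3, Pde1a and Arpp21 clusters and 8 to 24 without 1 animal. Oligodendrocytes (9) gave 15 with DESeq2, 0 with only the 9 animals and 5 to 23 without 1 animal. Mural cells (0) gave 5 with DESeq2, 1 with at least 500 counts per barcode, 2 with no filter, 4 with the term for animal numbers, 3 without mixed barcodes and 0 to 3 without 1 animal. With no filter endothelial cells gave 7 and oligodendrocyte precursors 4, and DESeq2 gave 1 gene in Nxph3 neurons. The difference between ages gave 18 genes in microglia and 2 in oligodendrocytes with DESeq2, and that between excitatory neurons and interneurons 3 with a prior count of 0.5.

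Called directions reversed for Arpp21 (-0.067) in the C1ql3 cluster, for B3galt2 (1.40), Scg2 (1.28) and Pde4b (-0.033) in the Arpp21 cluster, and for Dnajb1 (0.41) in the P2ry12 cluster. Of genes not called, Ptprn2 in excitatory neurons was 0.40 in the C1ql3 cluster, and Mapt in microglia was -0.28 in the Ccl4 cluster, -0.00626 without rTg4510 replicate 3 (up to 0.55 without another animal) and -0.17 in the animals with lower numbers, where Prnp was -0.46. The share of excitatory neurons differed by -0.79 percentage points without rTg4510 replicate 3, against 2.75 with it and up to 6.77 without another animal. No paired analysis was possible because the labels give the animals of the groups no shared replicate numbers; the numbers used here only name the animals.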
